A study of Mus musculus with 8 samples.

Results

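Genes of the ciliated mimetic cell were followed across the 4 mTEC subsets of the study. The 9 genes are the transcriptional regulators Mcidas, Trp73, Foxj1, Rfx2 and Rfx3 and the axonemal or cilium-associated genes Dnah5, Ccdc39, Dynlrb2 and Tppp3. They were taken by name, although with earlier results of these data known. All 9 were found among the 25466 genes of the count table and passed the filter on low counts. Medullary thymic epithelial cells (mTECs) had been isolated by FACS as CD45neg, Epcampos and CDR1neg cells from thymi of wild-type BL6N6 mice of 4 to 6 weeks, and were divided by Tspan8 (pos or neg) and MHCII (hi or lo) into Tspan8neg MHCIIlo, Tspan8neg MHCIIhi, Tspan8pos MHCIIhi and Tspan8pos MHCIIlo. All mice were untreated as far as the labels say, and each subset has 2 biological replicates. In the study MHCII serves to address mTEC maturation, and Tspan8 is an example of a tissue-restricted antigen.

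Motile cilia are beating projections of airway, oviduct and ependymal cells, and a multiciliated cell is built by a cascade of regulators. Gmnc and Mcidas, both relatives of geminin, act at its start with E2f partners and drive amplification of centrioles, Trp73 (p73) is a transcription factor needed for multiciliated cells, and Foxj1 with the Rfx factors switches on the genes of the axoneme. The axoneme moves through dynein arms, which are attached at fixed intervals along doublet microtubules. In the thymic medulla, small groups of mTECs, called mimetic cells, express the programs of peripheral cell types, and ciliated cells are among the types described there. Tissue-restricted genes are also transcribed in scattered Aire-expressing mTECs.

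Library totals ranged from 1941518 counts (Tspan8pos MHCIIlo replicate 1) to 7783841 (Tspan8pos MHCIIlo replicate 2), so that 3 counts, the level below which values are treated here as a floor, correspond to between 0.385 and 1.65 CPM (counts scaled to library size, with TMM normalisation). The sorted proteins' genes went with the sort, since Tspan8 was higher in the Tspan8pos subsets by 5.24 and 5.56 and H2-Ab1 higher in the MHCIIhi subsets by 1.42 and 2.33 on the log2 scale. Replicate 2 of Tspan8neg MHCIIlo stood apart from its partner. Their counts differed with a chi-square statistic per gene of 9.99, against 3.43 to 5.40 in the other subsets, and the summed level of 8 thymocyte markers was 1034 CPM in it and 365 CPM in replicate 1, while the other 6 libraries had between 67.2 and 215. None of the 8 was at 0 in a subset, and Cd3e, which defines T lineage cells, was at 34.8 and 121 CPM in Tspan8neg MHCIIlo and between 2.59 and 6.96 in the other libraries, although the sort was for CD45neg cells. The summed level of 8 dendritic cell and macrophage markers was between 395 and 493 CPM in the MHCIIhi libraries. In the MHCIIlo libraries it was between 62.6 and 221. Lyz2 had the largest means in MHCIIhi (305 and 240 CPM in Tspan8neg and Tspan8pos). Of the 8, 7 had a positive log2 fold change for MHCIIhi within Tspan8neg and 8 within Tspan8pos. Itgax was the other within Tspan8neg, with means of 17.5 CPM in MHCIIlo and 5.16 in MHCIIhi. Of 8 markers of mTECs, all were detected, and Epcam lay between 367 and 1081 CPM. Other summed markers also differed between replicates 1 and 2 of Tspan8neg MHCIIlo. Those of cTECs were at 138 and 290 CPM and those of dendritic cells and macrophages at 62.6 and 128. B cell markers were at 21.9 and 51.2 and fibroblast markers at 110 and 197. Markers of mTECs (6538 and 4826) and of endothelium (149 and 101) went the other way.

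The 9 genes did not share a pattern over the subsets. By their mean CPM, Trp73, Rfx3, Ccdc39 and Dynlrb2 were highest in Tspan8neg MHCIIlo, Mcidas in Tspan8neg MHCIIhi, and Foxj1, Rfx2, Dnah5 and Tppp3 in Tspan8pos MHCIIlo. None was highest in Tspan8pos MHCIIhi. The division of all genes tested over the subsets was not counted, so these numbers have no background beside them. Compared per kilobase of exon, Tppp3 and Foxj1 were the most abundant of the 9 in the Tspan8pos subsets, with 55.5 and 38.9 CPM per kb in Tspan8pos MHCIIlo and 39.0 and 36.2 in Tspan8pos MHCIIhi. In Tspan8neg MHCIIhi the order was the reverse, with 27.2 for Foxj1 and 22.3 for Tppp3. Trp73, Rfx3 and Ccdc39 did not exceed a mean of 2.29 CPM per kb in any subset. The libraries are of whole sorted subsets, so that a lower value can stand for fewer cells of a type or for less RNA per cell, which cannot be told apart here.

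**Figure D1:**
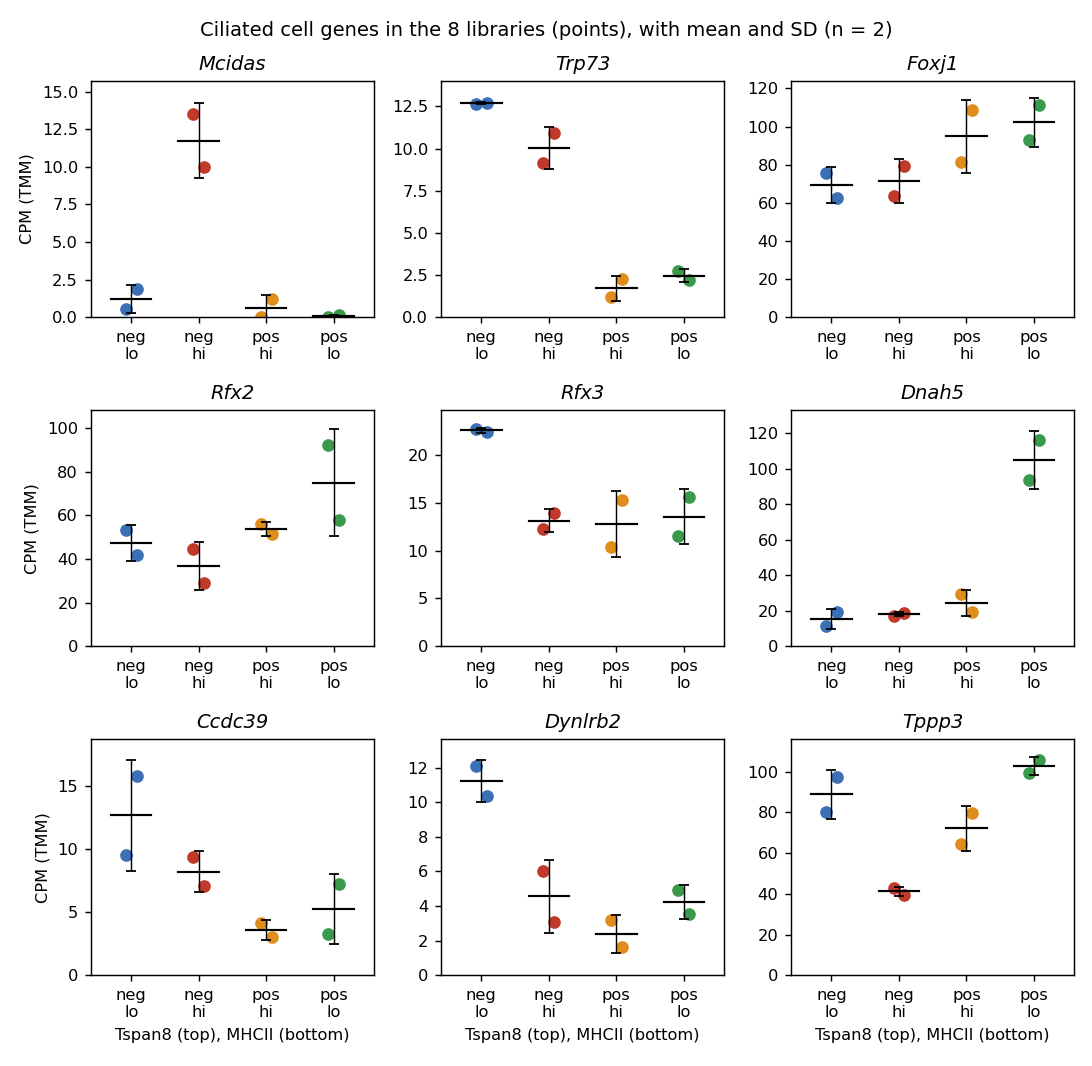
Levels of the 9 ciliated cell genes in CPM (TMM, linear axes from 0), 1 panel a gene, with a point for each library, a line for the mean and a bar for the SD (n = 2) in the 4 subsets ordered as Tspan8neg MHCIIlo, Tspan8neg MHCIIhi, Tspan8pos MHCIIhi and Tspan8pos MHCIIlo. Mcidas stands out in Tspan8neg MHCIIhi (13.52 and 9.998 CPM), Dnah5 in Tspan8pos MHCIIlo (93.4 and 116), and Trp73 is high in both Tspan8neg subsets.

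Tests were made with edgeR's quasi-likelihood test, and a gene was called at a Benjamini-Hochberg adjusted p under 0.01 over the 17006 genes tested together with a log2 fold change of 1 or more in either direction. In MHCIIlo mTECs, Tspan8pos against Tspan8neg, 1 of the 9 genes was called higher (Dnah5) and 1 lower (Trp73), where 12.1% of all genes were called higher and 9.34% lower. In MHCIIhi mTECs the same comparison called 0 of 9 higher and 2 lower (Mcidas and Trp73), beside 11.0% of all genes higher and 7.45% lower. DESeq2's Wald test also called 2 of the 9. Between MHCIIhi and MHCIIlo within the Tspan8neg subsets 1 was higher (Mcidas) and 1 lower (Tppp3), with 13.1% and 9.67% of all genes, and within the Tspan8pos subsets 0 were higher and 1 lower (Dnah5), with 4.59% and 2.62%. The median log2 fold change of the 9 was -0.68 for Tspan8pos against Tspan8neg in MHCIIlo, and -0.25 once Mcidas, at the floor in Tspan8pos MHCIIlo, is entered at its bound, where the median of all genes was -0.03.

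The remaining pairs of subsets differ in both markers. Between Tspan8pos MHCIIlo and Tspan8neg MHCIIhi 3 of the 9 genes were higher (Dnah5, Tppp3 and Rfx2) and 2 lower (Mcidas and Trp73), beside 14.7% and 14.6% of all genes. Between Tspan8pos MHCIIhi and Tspan8neg MHCIIlo 0 were higher and 3 lower (Trp73, Dynlrb2 and Ccdc39), beside 14.4% and 10.3%. The interaction asks whether the Tspan8 difference in MHCIIlo exceeds that in MHCIIhi, and it was positive and called for 1 gene (Dnah5) and negative for 0, beside 2.36% and 2.24% of all genes.

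**Figure D2:**
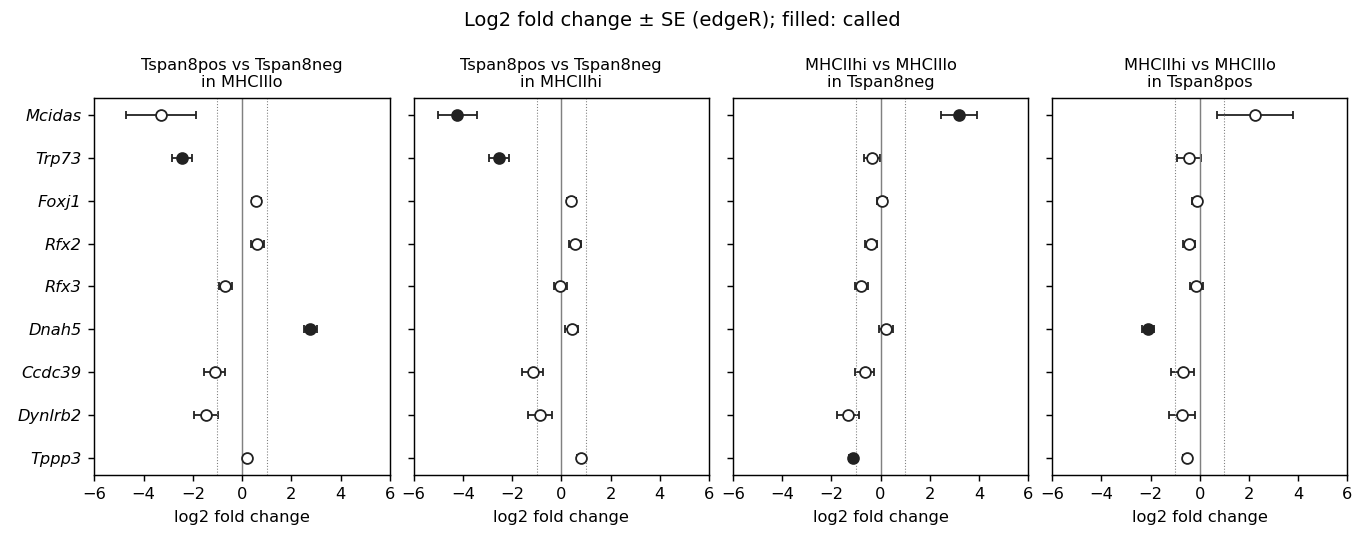
Log2 fold change with its standard error (edgeR, 8 libraries in 1 fit) of each gene in the comparisons within an MHCII level or a Tspan8 subset, with filled points for called genes, open points for genes not called and dotted lines at the fold limit. Only Trp73 is called in both Tspan8 comparisons (-2.42 and -2.54), and the Mcidas values against Tspan8pos MHCIIlo rest on a subset at the floor and depend on the prior count.

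The promoters of Dynlrb2, Mcidas and Dnah5 are shown because these genes peak in different subsets and differ in motifs of the Rfx family, to which Rfx2 and Rfx3 belong. Dynlrb2 holds a full motif, Mcidas a short one and Dnah5 none. The windows are on the plus strand of GRCm38.p6, from 220 to 31 bases before the start annotated by RefSeq. They read 5′ to 3′ with motif letters in capitals. The gene bounds given elsewhere are those of GENCODE, whose starts differ. The Dynlrb2 window thus runs past the GENCODE start at 116504974. They lie at chr8:116504795-116504984 for Dynlrb2, chr13:112993648-112993837 for Mcidas and chr15:28203546-28203735 for Dnah5.
Dynlrb2: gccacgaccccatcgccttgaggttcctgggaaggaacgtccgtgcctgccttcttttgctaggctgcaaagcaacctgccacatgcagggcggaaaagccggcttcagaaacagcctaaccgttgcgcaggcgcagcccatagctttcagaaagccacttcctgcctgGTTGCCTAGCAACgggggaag
Mcidas: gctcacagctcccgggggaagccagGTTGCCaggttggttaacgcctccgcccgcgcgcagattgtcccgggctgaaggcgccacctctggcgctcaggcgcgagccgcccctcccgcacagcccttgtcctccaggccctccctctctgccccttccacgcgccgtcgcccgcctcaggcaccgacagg
Dnah5: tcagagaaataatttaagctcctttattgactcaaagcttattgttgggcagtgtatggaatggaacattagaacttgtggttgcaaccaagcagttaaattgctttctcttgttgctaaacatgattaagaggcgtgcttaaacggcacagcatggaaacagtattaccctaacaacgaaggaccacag

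Motifs were searched on both strands of the full windows of 250 bases before to 50 bases after each RefSeq start, from which distances are counted. The short Rfx motif GTTGCC was found in 5 of the 7 genes that have a window (Dynlrb2, Mcidas, Rfx2, Rfx3 and Trp73), and in 14.1% of the 27025 genes with a window. Capitals in Dynlrb2 mark a full RFX X-box 51 bases before the start. In it the short motif GTTGCC is followed by an inverted, similar but not identical site, AGCAAC. The short motif in that promoter lies inside the X-box, so that both searches count the same letters. An X-box was found in 1 of the 7 genes and in 1.75% of all genes. In Mcidas the short motif begins 195 bases before the start, and Dnah5 held none of the motifs. The forkhead core TGTTTAC, a motif of the family of Foxj1, was in 0 of the 7 windows and in 4.05% of all genes. Foxj1 and Tppp3 were not among the matched windows. Of the other motile cilium genes described below, 112 had a window. The short motif was in 55 of these and the forkhead core in 8. An X-box was in 22, among them Ccno, Dnaic2, Hydin, Kif9 and Tekt2. A match describes letters in the window and not binding. Of 19 X-box genes tested, 10 were highest in Tspan8neg MHCIIlo, 6 in Tspan8neg MHCIIhi, 0 in Tspan8pos MHCIIhi and 3 in Tspan8pos MHCIIlo, against 40, 24, 4 and 11 of the 79 tested genes with a window but no X-box.

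Among the regulators, Mcidas (multicilin; GRCm38 chromosome 13, 112993845 to 113000394) was highest in Tspan8neg MHCIIhi. It had 65 and 78 counts in the 2 replicates there, 2 and 8 in Tspan8neg MHCIIlo, 0 and 6 in Tspan8pos MHCIIhi and 0 and 1 in Tspan8pos MHCIIlo. Both Tspan8neg MHCIIhi libraries lay above all others, with 13.52 and 9.998 CPM against at most 1.89. The log2 fold change was 3.19 ± 0.74 (SE) for MHCIIhi against MHCIIlo within Tspan8neg (adjusted p = 0.00517) and -4.22 ± 0.80 for Tspan8pos against Tspan8neg within MHCIIhi (adjusted p = 0.00168). Against Tspan8pos MHCIIlo, where both libraries were at or under the floor, the level in Tspan8neg MHCIIhi was at least 11.4-fold higher, computed against 3 counts per library. Each of the first 2 calls was lost when any of 3 single libraries was left out, and the gene does not pass a stricter filter that asks for 10 counts in each of 4 libraries. Over all fits with a library left out, the log2 fold change was between 2.61 and 4.31 within Tspan8neg and between -8.85 and -3.21 within MHCIIhi. The call against Tspan8pos MHCIIlo was lost without replicate 2 of Tspan8pos MHCIIlo (adjusted p = 0.0199).

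Genes next to Mcidas in the cascade or on the chromosome partly shared this pattern. Gmnc, which acts upstream of Mcidas, had 34 and 55 counts in Tspan8neg MHCIIhi (7.07 and 7.05 CPM), 0 in both libraries of Tspan8neg MHCIIlo and at most 3 in any Tspan8pos library, which makes it at least 9.11-fold higher in Tspan8neg MHCIIhi than in Tspan8neg MHCIIlo and at least 11.7-fold higher than in Tspan8pos MHCIIhi. Cdc20b, whose gene hosts the miR-449 family of multiciliated cells, begins 34716 bases downstream of Mcidas, and 7.69% of its 54-base words also occur in 4930563N14Rik. It was at 3.54 and 5.77 CPM in Tspan8neg MHCIIhi, at 0.843 and 0.943 in Tspan8neg MHCIIlo and at most 0.406 in the Tspan8pos libraries, and was called lower in Tspan8pos MHCIIhi, where it was at the floor (at least 7.71-fold, adjusted p = 0.00302). Ccno, a cyclin-like protein of centriole amplification, ends 3067 bases upstream of Mcidas and did not follow it. Its levels were 16.6 and 18.6 CPM in Tspan8neg MHCIIlo, 16.43 and 16.02 in Tspan8neg MHCIIhi, 2.79 and 3.66 in Tspan8pos MHCIIhi and 3.30 and 4.64 in Tspan8pos MHCIIlo. Ccno was thus lower in Tspan8pos at both MHCII levels, by 2.05 ± 0.31 and 2.32 ± 0.31 on the log2 scale (adjusted p = 0.000376 and 0.000156), with no overlap between the groups.

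Trp73 had the pattern of Ccno and not that of Mcidas. Its level was 12.6 and 12.7 CPM in Tspan8neg MHCIIlo, 9.15 and 10.9 in Tspan8neg MHCIIhi, 1.19 and 2.24 in Tspan8pos MHCIIhi and 2.75 and 2.18 in Tspan8pos MHCIIlo. The libraries of the Tspan8neg subsets all lay above those of the Tspan8pos subsets. Tspan8pos against Tspan8neg gave a log2 fold change of -2.42 ± 0.41 in MHCIIlo (adjusted p = 0.000725) and -2.54 ± 0.40 in MHCIIhi (adjusted p = 0.000517), and the interaction was 0.12 ± 0.57. Between MHCII levels it was not called, with -0.33 ± 0.33 within Tspan8neg and -0.45 ± 0.48 within Tspan8pos. The call in MHCIIlo was lost without replicate 2 of Tspan8pos MHCIIlo (-2.19, adjusted p = 0.0222), which leaves the shallowest library alone in its group. Of the gene's 54-base words, 4.05% also occur in the transcripts of the antisense gene Trp73os, so that some of its reads could belong to either.

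Foxj1, often taken as the master regulator of motile cilia, did not differ between the subsets by the thresholds used. It was at 75.8 and 62.5 CPM in Tspan8neg MHCIIlo, 63.4 and 79.5 in Tspan8neg MHCIIhi, 81.5 and 109 in Tspan8pos MHCIIhi and 92.9 and 111 in Tspan8pos MHCIIlo. All 4 Tspan8pos libraries lay above all 4 Tspan8neg libraries, by a small margin between 79.5 and 81.5 CPM. The log2 fold change of Tspan8pos against Tspan8neg was 0.58 ± 0.19 in MHCIIlo (95% interval 0.20 to 0.95, adjusted p = 0.0321) and 0.41 ± 0.19 in MHCIIhi (0.04 to 0.77, adjusted p = 0.109). These intervals rest on a normal approximation, which is narrow for a fit on 8 libraries. They end inside the fold limit, in MHCIIlo only just, so that a 2-fold difference there is not excluded. Foxj1 and Trp73 thus differed in opposite directions between Tspan8pos and Tspan8neg, and only the Trp73 difference was called.

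Of the Rfx factors, which bind the X-box shown above, Rfx2 was at 53.4 and 41.7 CPM in Tspan8neg MHCIIlo, 44.5 and 29.0 in Tspan8neg MHCIIhi, 56.0 and 51.6 in Tspan8pos MHCIIhi and 92.3 and 57.9 in Tspan8pos MHCIIlo. The replicates of the highest subset were far apart. The only call, Tspan8pos MHCIIlo over Tspan8neg MHCIIhi, had a log2 fold change of 1.00 ± 0.25 (adjusted p = 0.00681) at the edge of the fold limit and was lost in 11 of 16 alternatives. It was 0.62 without replicate 2 of Tspan8neg MHCIIhi and 0.67 without replicate 1 of Tspan8pos MHCIIlo.

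Rfx3 was at 22.8 and 22.4 CPM in Tspan8neg MHCIIlo and between 10.4 and 15.6 in the other 6 libraries, and was not called. The log2 fold change was -0.78 ± 0.26 for MHCIIhi against MHCIIlo within Tspan8neg (adjusted p = 0.0303) and -0.68 ± 0.27 for Tspan8pos against Tspan8neg within MHCIIlo (adjusted p = 0.0614). Thymocyte markers were also highest in Tspan8neg MHCIIlo, with 3 of 8 called lower in Tspan8pos MHCIIlo and 5 of 8 in Tspan8neg MHCIIhi. Of all genes, 9.34% and 9.67% were called lower in these comparisons. The Tspan8neg MHCIIlo replicates had 22.8 and 22.4 CPM of Rfx3 and 365 and 1034 CPM of summed thymocyte markers, and the genes most like Rfx3 over the 8 libraries were Prkcq and Cd5, both known from T cells (r = 0.98 for each). The part of thymocytes in the Rfx3 values was not tested.

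Further regulators of multiciliogenesis were called lower but not higher in Tspan8pos. Of 15 tested besides the 5 above, 0 were higher and 6 lower at each MHCII level, where 9.34% and 7.45% of all genes were called lower in MHCIIlo and MHCIIhi, and their median log2 fold change was -1.43 and -1.17 (-0.88 and -1.17 with genes at the floor entered at their bound). Called lower at both levels were Ccno, the forkhead factor Foxn4, Plk4, the kinase that starts centriole duplication, and the E2f partner Tfdp1, of which Plk4 and Tfdp1 also act in dividing cells. Tfdp1 shares 15.9% of its words with Gm7390, and its counts are uncertain. Foxn4 was at 2.53 and 4.24 CPM in Tspan8neg MHCIIlo, 6.03 and 8.59 in Tspan8neg MHCIIhi, 1.39 and 2.03 in Tspan8pos MHCIIhi and 0 and 0.137 in Tspan8pos MHCIIlo. Plk4 fell from 24.0 ± 0.61 to 5.001 ± 0.70 CPM (SD, n = 2) in MHCIIlo and from 35.1 ± 2.4 to 15.01 ± 2.9 in MHCIIhi. Ccdc78, a protein of the deuterosome, was highest in Tspan8neg MHCIIlo (14.6 and 10.1 CPM) and between 2.08 and 4.23 in the other libraries, while its partner Deup1 had 9.98 and 12.3 CPM in Tspan8neg MHCIIhi and at most 8.02 elsewhere. Of the words of Ccdc78 7.89% are shared with other genes. Myb was lower in Tspan8pos MHCIIlo by 1.43 ± 0.31 (adjusted p = 0.00361). Myb was at 119 and 283 CPM in replicates 1 and 2 of Tspan8neg MHCIIlo. Thymocytes express Myb too, and thymocyte markers were higher in replicate 2. So were cTEC, dendritic cell and macrophage, B cell and fibroblast markers, while mTEC and endothelial markers were lower. The part of any of these cells in the Myb values was not tested.

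Among the genes of the axoneme, Dnah5, a heavy chain of the outer dynein arm (GRCm38 chromosome 15, 28203752 to 28472052), was highest in Tspan8pos MHCIIlo. It was at 93.4 and 116 CPM there, at 29.5 and 19.3 in Tspan8pos MHCIIhi, at 17.3 and 19.0 in Tspan8neg MHCIIhi and at 11.2 and 19.3 in Tspan8neg MHCIIlo. The Tspan8pos MHCIIlo libraries were the only ones above 29.5 CPM. The log2 fold change of Tspan8pos against Tspan8neg was 2.78 ± 0.27 in MHCIIlo (adjusted p = 1.31e-05) and 0.42 ± 0.26 in MHCIIhi (adjusted p = 0.226), and that of MHCIIhi against MHCIIlo was -2.12 ± 0.25 within Tspan8pos (adjusted p = 0.000214) and 0.23 ± 0.28 within Tspan8neg. The interaction was 2.35 ± 0.37 (adjusted p = 0.00282), and this call was lost without any of 4 libraries, with adjusted p between 0.0104 and 0.0281 and values between 2.07 and 2.46. The calls between subsets remained under all alternatives run. No word of the Dnah5 transcripts is shared with another gene.

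Of 20 axonemal dynein genes tested besides the members, 0 were higher and 2 lower in Tspan8pos MHCIIlo against Tspan8neg MHCIIlo, 1 higher and 5 lower in the MHCIIhi comparison, 6 higher and 5 lower in MHCIIhi against MHCIIlo within Tspan8neg, and 2 higher and 0 lower within Tspan8pos. In the same order, 12.1% and 9.34%, 11.0% and 7.45%, 13.1% and 9.67%, and 4.59% and 2.62% of all genes were called higher and lower. In mean CPM 10 were highest in Tspan8neg MHCIIlo, 8 in Tspan8neg MHCIIhi, 1 in each Tspan8pos subset. For this division too, no count over all genes was made. Dnah9, a further heavy chain of the outer arm, was at 129 and 113 CPM in Tspan8pos MHCIIhi, 80.5 and 82.3 in Tspan8neg MHCIIhi, 53.9 and 56.2 in Tspan8pos MHCIIlo and 24.2 and 42.4 in Tspan8neg MHCIIlo. It was higher in MHCIIhi by 1.28 ± 0.21 within Tspan8neg (adjusted p = 0.000716) and by 1.13 ± 0.21 within Tspan8pos (adjusted p = 0.00364). Within Tspan8pos this is opposite in sign to Dnah5 (-2.12). The intermediate chain gene Dnaic2 was at 83.6 and 92.5 CPM in Tspan8neg MHCIIhi, 25.9 and 34.3 in Tspan8pos MHCIIhi, 17.6 and 16.7 in Tspan8pos MHCIIlo and 7.86 and 14.9 in Tspan8neg MHCIIlo. Dnah17 was at 46.2 and 39.7 CPM in Tspan8neg MHCIIhi and at 0.843 and 3.30 in Tspan8neg MHCIIlo, a log2 fold change of 4.30 ± 0.41 (adjusted p = 1.80e-05). Dnah2 and Dnah1 were also highest in Tspan8neg MHCIIhi. In contrast Dnah8 was highest in Tspan8neg MHCIIlo (29.5 and 51.9 CPM, against 5.89 to 16.9 elsewhere), as were Dnah3 and Dnah10. With Dnah5, each of the 4 subsets thus held the highest mean of at least 1 heavy chain.

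Dynlrb2, a light chain of the roadblock family (GRCm38 chromosome 8, 116504974 to 116515915), was low throughout. It had 12.1 and 10.4 CPM in Tspan8neg MHCIIlo, 6.03 and 3.08 in Tspan8neg MHCIIhi, 3.19 and 1.63 in Tspan8pos MHCIIhi and 4.95 and 3.55 in Tspan8pos MHCIIlo, from 8 to 44 counts a library. The Tspan8neg MHCIIlo libraries were the highest. The log2 fold change was -2.21 ± 0.48 in Tspan8pos MHCIIhi against Tspan8neg MHCIIlo (adjusted p = 0.00332), and -1.47 ± 0.48 and -1.33 ± 0.45 in Tspan8pos MHCIIlo and Tspan8neg MHCIIhi against it, which missed the threshold (adjusted p = 0.0294 and 0.0321). Without replicate 2 of Tspan8pos MHCIIhi the call was lost (-1.80, adjusted p = 0.0345).

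Ccdc39, which with Ccdc40 sets the spacing of dynein arms, was at 9.55 and 15.8 CPM in Tspan8neg MHCIIlo, 9.36 and 7.05 in Tspan8neg MHCIIhi, 4.18 and 3.05 in Tspan8pos MHCIIhi and 3.30 and 7.23 in Tspan8pos MHCIIlo. It was called lower in Tspan8pos MHCIIhi than in Tspan8neg MHCIIlo, by a log2 fold change of -1.81 ± 0.43 (adjusted p = 0.00541). Within an MHCII level it was -1.12 ± 0.42 in MHCIIlo and -1.16 ± 0.43 in MHCIIhi, not called (adjusted p = 0.0536 and 0.0542). This call was lost in 5 of 16 alternatives. The value was -1.39 without replicate 2 of Tspan8neg MHCIIlo (adjusted p = 0.0344), -1.80 without replicate 1 of Tspan8neg MHCIIhi (0.0103), -2.04 and -1.60 without replicate 1 or 2 of Tspan8pos MHCIIhi (0.0236 and 0.0483), and -1.77 in a fit on the contrast's own libraries (0.0106). The gene overlaps Ttc14 on the opposite strand, and 14.1% of its words also occur in Ttc14 transcripts, so its counts are uncertain.

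Tppp3, a tubulin-binding protein abundant in ciliated cells, was at 80.3 and 97.1 CPM in Tspan8neg MHCIIlo, 42.8 and 39.6 in Tspan8neg MHCIIhi, 64.3 and 79.9 in Tspan8pos MHCIIhi and 99.5 and 106 in Tspan8pos MHCIIlo. Its lowest libraries were those of Tspan8neg MHCIIhi, where Mcidas was highest. Its log2 fold change was -1.11 ± 0.16 for MHCIIhi against MHCIIlo within Tspan8neg (adjusted p = 0.000283) and 0.81 ± 0.16 for Tspan8pos against Tspan8neg within MHCIIhi, past the p but inside the fold limit (adjusted p = 0.00238). The call within Tspan8neg fell inside the fold limit without replicate 2 of Tspan8neg MHCIIlo (-0.98), and was also lost without replicate 2 of Tspan8neg MHCIIhi (-0.96, adjusted p = 0.0106). Tppp3 is not restricted to ciliated cells.

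Of 138 other motile cilium genes, 121 were tested. In MHCIIlo, 3 were higher in Tspan8pos and 18 lower, and in MHCIIhi 7 were higher and 15 lower. Within Tspan8neg 10 were higher in MHCIIhi and 16 lower, and within Tspan8pos 4 higher and 4 lower. As shares of 121, 18 and 15 lower stand beside 9.34% and 7.45% of all genes, and 3 and 7 higher beside 12.1% and 11.0%. The median log2 fold change was -0.62 in MHCIIlo (-0.52 with bounds) and -0.24 in MHCIIhi, where that of all genes was -0.03 in both. By mean CPM, 64 of the 121 were highest in Tspan8neg MHCIIlo, 33 in Tspan8neg MHCIIhi, 5 in Tspan8pos MHCIIhi and 19 in Tspan8pos MHCIIlo. The subset of the highest mean was not counted over all genes tested. Whether this division is particular to cilium genes was therefore not tested. The 121 genes summed to 1886 and 2398 CPM in Tspan8neg MHCIIlo together with the 17 genes that were not tested, to 1943 and 1908 in Tspan8neg MHCIIhi, 1523 and 1510 in Tspan8pos MHCIIhi and 1656 and 1785 in Tspan8pos MHCIIlo. Within Tspan8neg MHCIIlo the higher sum was in replicate 2, which had more thymocyte markers. It also had more cTEC, dendritic cell and macrophage, B cell and fibroblast markers, and less of mTEC and endothelial ones. The part of any of these cells was not tested.

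**Figure D3:**
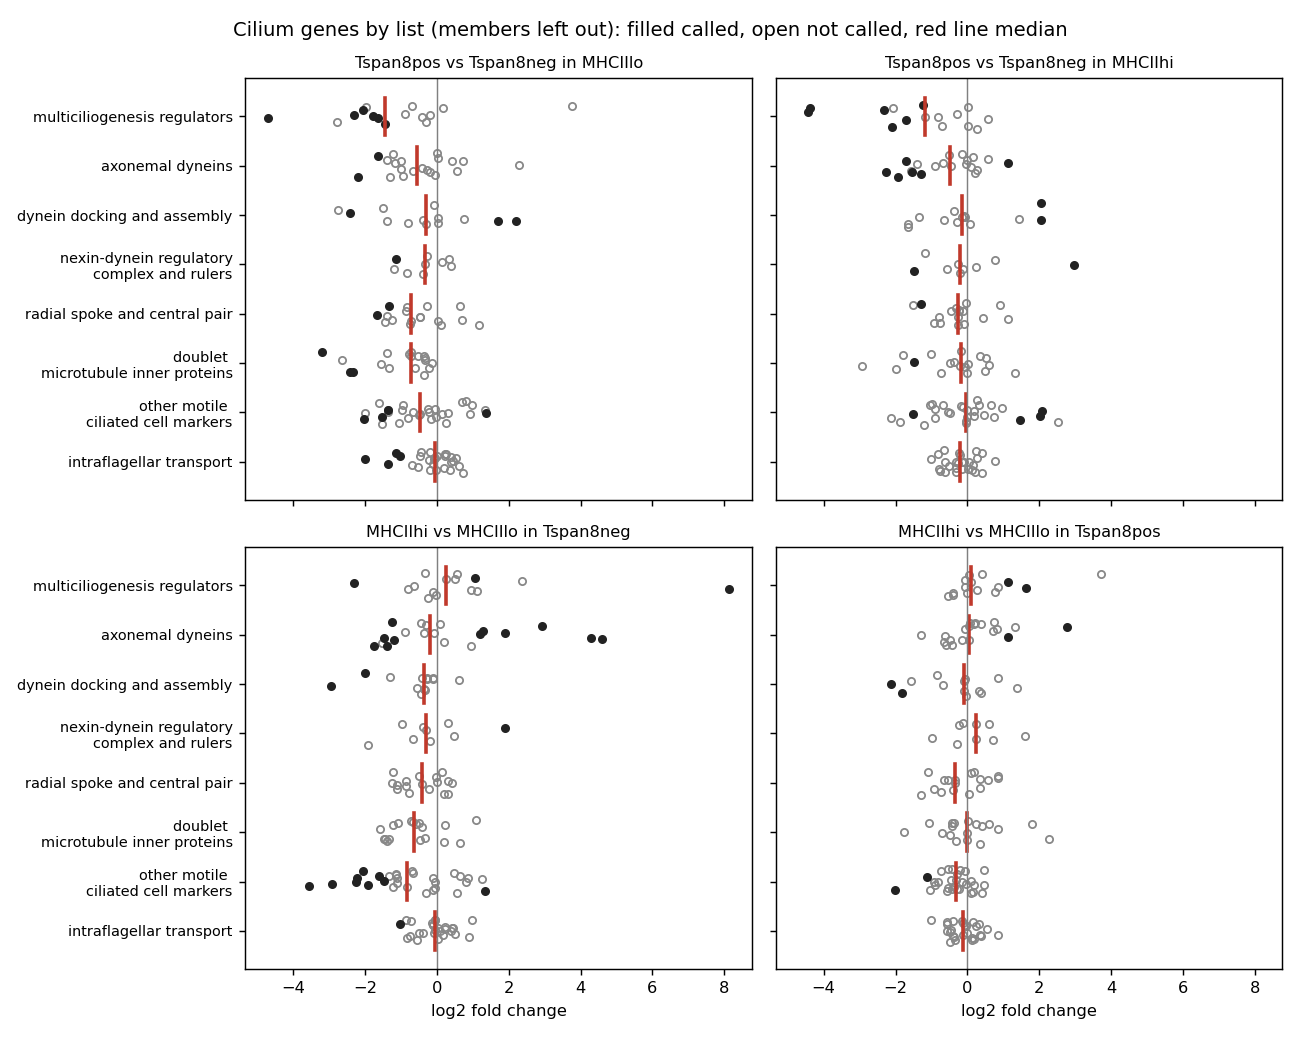
Log2 fold changes (edgeR) of the tested cilium genes by list without the 9 members, 1 panel for each comparison, with filled points for called genes, open points for others and a red line at the list's median. Multiciliogenesis regulators lie lowest for Tspan8pos against Tspan8neg (medians -1.43 in MHCIIlo and -1.17 in MHCIIhi). Intraflagellar transport genes lie nearest 0 in MHCIIlo (-0.05) but not in MHCIIhi (-0.20). There the other ciliated cell markers (-0.03), docking and assembly genes (-0.15) and doublet inner proteins (-0.18) lie nearer 0, and the remaining lists further from it. Fitted values of genes at the floor, such as Gmnc at 8.13 within Tspan8neg, are no measured folds.

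Of 13 dynein docking and assembly genes tested, 2 were higher and 1 lower in Tspan8pos in MHCIIlo, and 2 were higher and 0 lower in MHCIIhi. Over all genes 12.1% were called higher and 9.34% lower in MHCIIlo, and 11.0% and 7.45% in MHCIIhi, so that the counts of the list are near these shares. Ttc25 (Odad4), which docks outer arms, was at 103 and 108 CPM in Tspan8pos MHCIIlo, 22.3 and 26.2 in Tspan8pos MHCIIhi, 19.7 and 26.4 in Tspan8neg MHCIIlo and 7.07 and 4.87 in Tspan8neg MHCIIhi. It was higher in Tspan8pos by 2.20 ± 0.20 in MHCIIlo (adjusted p = 9.18e-06) and by 2.06 ± 0.24 in MHCIIhi (adjusted p = 5.25e-05). The assembly factor Spag1 was at 29.5 to 37.3 CPM in the 4 Tspan8pos libraries and at 6.45 to 11.2 in the 4 Tspan8neg libraries. Dnaaf3, a further assembly factor, was highest in Tspan8pos MHCIIlo (110 and 116 CPM) and lowest in Tspan8pos MHCIIhi (32.3 and 31.7). Zmynd10, which acts in the same process, went the other way, with 7.58 and 12.3 CPM in Tspan8neg MHCIIlo and 1.65 and 1.91 in Tspan8pos MHCIIlo (-2.43 ± 0.47, adjusted p = 0.00177). Its partner Lrrc6 was highest in the MHCIIlo subsets and at most 0.513 CPM in Tspan8neg MHCIIhi.

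Of 18 doublet microtubule inner protein genes 0 were higher and 3 lower in Tspan8pos MHCIIlo, namely the tektin Tekt1, Mns1 and Cfap52. Over all genes 12.1% were called higher and 9.34% lower in this comparison, and 11.0% and 7.45% in MHCIIhi, which are the shares to set beside each list that follows. Mns1 shares 51.1% of its words with Tex9 and other genes and is uncertain. Of 17 radial spoke and central pair genes 2 were lower in Tspan8pos MHCIIlo, the central pair genes Hydin (8.43 and 15.3 CPM against 2.75 and 4.23) and Cfap46. Of 9 nexin-dynein regulatory complex genes 1 was lower in MHCIIlo (Drc3), and in MHCIIhi 1 was higher (Ccdc113) and 1 lower (Tcte1). Intraflagellar transport, which primary cilia of most cells use as well, had 0 of 27 higher and 4 lower in Tspan8pos MHCIIlo (Ttc21b, Ift80, Dync2h1 and Dync2li1).

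Of 29 other markers of motile ciliated cells tested, 1 was higher and 8 lower in MHCIIhi against MHCIIlo within Tspan8neg, beside 13.1% and 9.67% of all genes. Ccdc153 was at 13.8 and 27.3 CPM in Tspan8neg MHCIIlo, 3.54 and 2.05 in Tspan8neg MHCIIhi, 5.58 and 3.45 in Tspan8pos MHCIIhi and 7.15 and 6.55 in Tspan8pos MHCIIlo, and Fam183b, Cdhr3 and Tmem212 were likewise highest in Tspan8neg MHCIIlo. Ccdc153 and Fam183b were higher in replicate 2 of Tspan8neg MHCIIlo (27.3 and 20.7 CPM) than in replicate 1 (13.8 and 11.8). Replicate 2 was richer in thymocyte markers and in several other marker lists. A different set was highest in Tspan8pos MHCIIlo. Cfap43, an axonemal protein, was at 147 and 141 CPM there, 67.1 and 65.4 in Tspan8pos MHCIIhi, 59.8 and 87.5 in Tspan8neg MHCIIlo and 14.97 and 16.41 in Tspan8neg MHCIIhi. Rgs22 and Ttll10 had the same highest and lowest subsets. Markers of other cells also moved in this comparison. Of 6 fibroblast markers 2 were higher and 2 lower in MHCIIhi within Tspan8neg, and of 5 cTEC markers 2 were higher. Of 5 endothelial markers 2 were lower there and 2 within Tspan8pos (medians -2.36 and -1.58), where 2.62% of all genes were called lower. The part of these other cells in the cilium gene values was not tested. The kinesin gene Kif9 was the marker called higher in Tspan8neg MHCIIhi (33.5 and 34.7 CPM against 10.1 and 16.7).

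**Figure D4:**
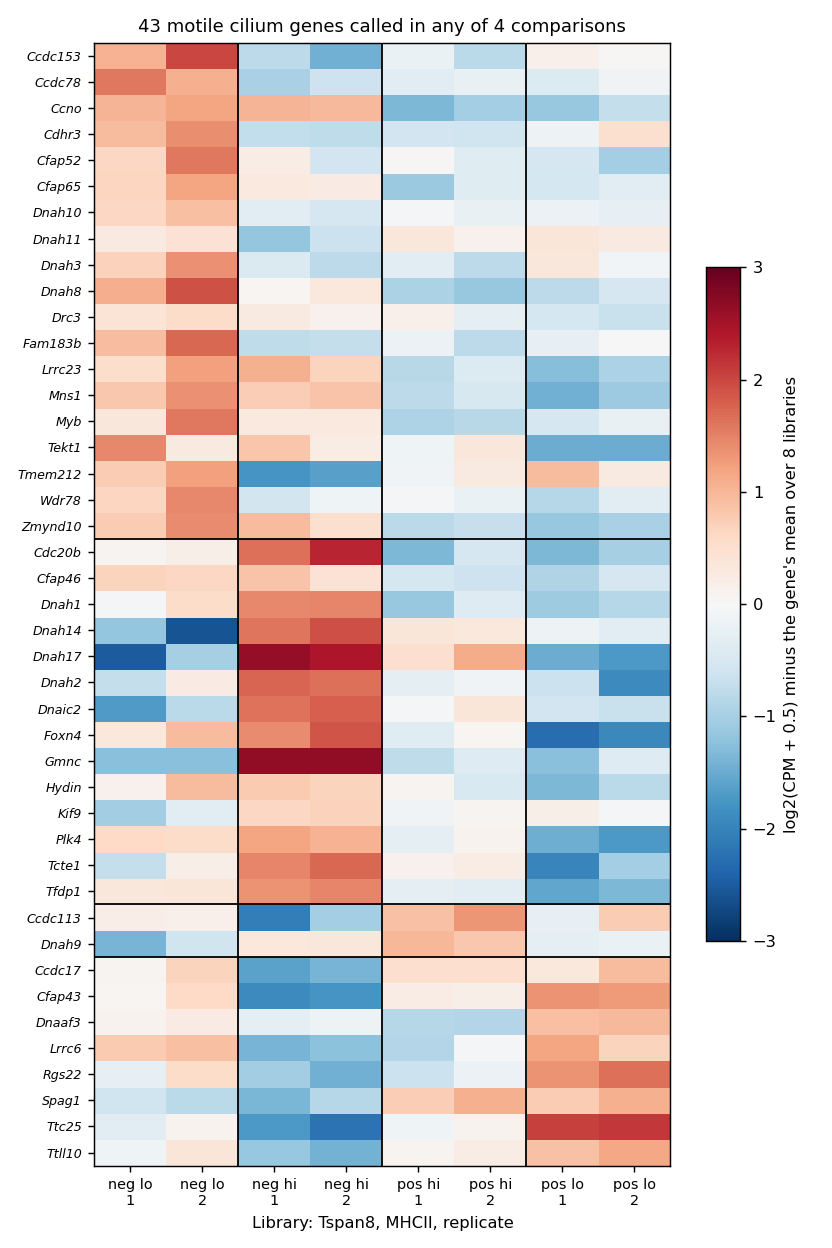
Levels of the 43 motile cilium genes other than the members that were called in any comparison within an MHCII level or a Tspan8 subset, as log2(CPM + 0.5) minus the gene's mean over the 8 libraries, with colours ending at 3 in either direction, genes in rows grouped by the subset of their highest mean and libraries in columns. The blocks hold 19 genes highest in Tspan8neg MHCIIlo, 14 in Tspan8neg MHCIIhi, 2 in Tspan8pos MHCIIhi and 8 in Tspan8pos MHCIIlo. The block sizes were not compared with those of all called genes.

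Likeness of other genes to a member over the 8 libraries was measured by Pearson's r of log2 CPM for 16837 genes, as a description over libraries that share subsets and depth. The most alike genes were D630039A03Rik for Foxj1 (r = 0.96), Tubb5 for Trp73 (0.99), Urgcp for Rfx2 (0.97), Prkcq for Rfx3 (0.98), Srsf1 for Ccdc39 (0.98), Adgrg6 for Dnah5 (0.98), Wdr5 for Dynlrb2 (0.99), Atp13a2 for Tppp3 (0.997) and Slc7a3 for Mcidas (0.99). For Ccdc39 the next was the central pair gene Spag17 (0.98), and for Rfx3 it was Cd5 (0.98), which like Prkcq is known from T cells. Of the 121 motile cilium genes, 8 reached an r of 0.9 with Trp73, 8 with Tppp3, 4 with Mcidas, 3 with Ccdc39, 1 each with Dnah5 and Dynlrb2, and 0 with Foxj1, Rfx2 or Rfx3. Of all 16837 genes, 578 reached it with Trp73, 535 with Tppp3, 266 with Mcidas, 194 with Ccdc39, 147 with Dnah5 and 188 with Dynlrb2. Only 26 did so with Foxj1, 40 with Rfx2 and 171 with Rfx3, so that few or none of 121 would be met at these shares. Among the members themselves, the highest r was that of Trp73 with Ccdc39 (0.79), followed by Ccdc39 with Dynlrb2 (0.76), and the lowest those of Rfx2 and of Tppp3 with Mcidas (both -0.79). Foxj1 had an r of -0.73 with Trp73.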

How the data were processed

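RNA-seq of 8 libraries of sorted mouse mTECs was analysed, 2 for each subset, grouped by the sample titles. The authors deposited a table of estimated counts (expected counts) per gene, made with Salmon 1.8.0 on the Gencode mouse transcriptome of mm10 and stored as whole numbers without normalization. The authors' DESeq2 1.30.0 results were not used. The labels name a stranded mRNA kit, the paper's methods pre-amplified, tagmented cDNA, so counts of genes that overlap an antisense gene are uncertain.

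Identifiers were matched to GENCODE symbols on GRCm38 (25336 of 25466, 99.49%). Counts were tested in R 4.3.3 with edgeR 4.0.16 (quasi-likelihood, TMM, filterByExpr, a mean per subset, 8 libraries in 1 fit, p-values two-sided and Benjamini-Hochberg adjusted). DESeq2 1.42.0 was an alternative, with its size factors, other filters, fits on a contrast's own libraries, a replicate block, other thresholds and each library left out. Intervals are approximate 95% intervals, made from the fitted value and its SE with a normal approximation, which is narrow for 8 libraries. Scripts were tested on simulated data. With 2 libraries against 2, an exact permutation test could not pass 0.05. The labels call replicates biological, without naming mice.

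Library totals ran from 1941518 to 7783841. The floor of 3 counts covers counting error only. Shared sequence was counted as 54-base words found in transcripts of other genes. It is not given for every gene named. Among those without it in the Results, Tcte1 shares 22.4% of its words, Spag17 13.4%, Tekt2 13.2% and Dnah3 9.24%. All 9 members are described. Other cilium genes were named when called with a mean of at least 1 CPM, up to 5 per list and comparison by fold, or when among the 3 highest of a list, and Deup1, Kif9 and Tekt2 were named after their values were seen. The 5 genes most like a member were ranked by Pearson's r. Markers were taken by list. Cell marker lists for cTECs, B cells, fibroblasts and endothelium had 0 to 1 of 5, 0 to 2 of 4, 1 to 2 of 6 and 0 to 1 of 5 genes called in the Tspan8 comparisons, and 1 to 2, 0, 0 to 4 and 2 in the MHCII comparisons. The shares of all genes called in these comparisons are given in the Results. Members and lists were chosen with earlier results of these data known.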

Additional observations from a re-analysis of the deposited data

Results flagged for a closer look

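For 4 genes the Tspan8 difference (log2 of Tspan8pos over Tspan8neg) itself differed between the MHCII levels by the interaction test of edgeR, at a Benjamini-Hochberg adjusted p under 0.01 over all genes. For Dnah5 the difference was larger in MHCIIlo by 2.35 ± 0.37 (SE, adjusted p = 0.00282), a call lost without replicate 2 of Tspan8neg MHCIIhi, of Tspan8pos MHCIIhi or of Tspan8pos MHCIIlo, or replicate 1 of Tspan8pos MHCIIlo. For Dnaic2 it was larger by 2.11 ± 0.36 (adjusted p = 0.00423), where the gene was lower in Tspan8pos in MHCIIhi (83.6 and 92.5 against 25.9 and 34.3 CPM). For Dnaaf3 it was larger by 1.42 ± 0.20 (adjusted p = 0.0015). Of the words of Dnaaf3 9.67% are shared with Gm15873 and Tnni3. For Ccdc17 it was smaller, with -1.72 ± 0.33 (adjusted p = 0.00819), and its lowest libraries were those of Tspan8neg MHCIIhi (14.1 and 16.4 CPM). Of the words of Ccdc17 26.1% are shared with the antisense gene C530005A16Rik, so that its counts are uncertain. Across all genes 2.36% had a positive and 2.24% a negative called interaction.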

How the results depend on the processing

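Of 63 tests of the 9 genes, 16 were called, and 6 of these calls and 44 of the 47 others remained under every alternative run. No called value changed sign. With at least 10 counts in at least 4 libraries, which drops Mcidas, 1 member was called for Tspan8pos against Tspan8neg in MHCIIhi, 1 for MHCIIhi against MHCIIlo within Tspan8neg, and 3 for Tspan8pos MHCIIlo against Tspan8neg MHCIIhi. Of the other motile cilium genes, called for Tspan8pos against Tspan8neg in MHCIIlo were 10 with only the libraries of the contrast and 32 at an adjusted p under 0.05, the latter also giving 38 for Tspan8pos MHCIIhi against Tspan8neg MHCIIlo and 13 for the interaction, which had 5 without a filter. Leaving out each library in turn, with a lone library taken to vary like the other groups, edgeR called 1 to 2 members for Tspan8pos against Tspan8neg in MHCIIlo, 1 to 2 in MHCIIhi, 0 to 2 for MHCIIhi against MHCIIlo within Tspan8neg, 1 within Tspan8pos, 3 to 5 for Tspan8pos MHCIIlo against Tspan8neg MHCIIhi, 1 to 3 for Tspan8pos MHCIIhi against Tspan8neg MHCIIlo and 0 to 1 for the interaction. For the other motile cilium genes these ranges were 8 to 27, 10 to 28, 12 to 27, 3 to 11, 19 to 34, 11 to 29 and 0 to 8 in the same order. Deviations of same-numbered libraries had low positive correlations, between 0.00402 and 0.0924, which cannot show that pairing is absent. Summed thymocyte markers were higher in replicate 2 in each subset. Besides Tspan8neg MHCIIlo, replicates 1 and 2 had 67.2 and 143 CPM in Tspan8neg MHCIIhi, 76.1 and 110 in Tspan8pos MHCIIhi, and 124 and 215 in Tspan8pos MHCIIlo. The fit with the replicate block called 2, 2, 2, 1, 5, 3 and 1 members in the 7 comparisons, as without it. Depth limits genes at or near the floor in a subset, among them Mcidas, Gmnc, Cdc20b, Foxn4 and Lrrc6.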
